A study of Mus musculus with 6 samples.

Results

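The genes described here encode the protein subunits of the mitochondrial respiratory chain and of ATP synthase, complexes I to V, in mouse liver. They were the protein-coding genes of GENCODE M21 with Nduf, Sdh, Uqcr, Cyc1, Cox4 to Cox8 or Atp5 symbols, which lie in nuclear DNA, and the mt- genes for respiratory subunits, which lie in mitochondrial DNA. The symbols matched 99 genes, of which 3 (Cox7b2, Cox8c and the second of the 2 genes named Atp5o) had no read in any library. A count of 0 allows up to 3 reads, or 0.177 to 0.229 CPM (reads over the library total, scaled alike in all) across the libraries. The remaining 96 members, of 55536 genes in the files, were 83 nuclear and 13 mitochondrial genes. Complex I had 37 nuclear and 7 mitochondrial members, complex II had 4 nuclear members, complex III had 9 and 1, complex IV had 16 and 3, and complex V had 17 and 2. Ndufa4 was counted under complex I by its symbol, although its protein is now placed in complex IV, and subunit genes with other symbols, such as Ndufab1, were not included.

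RNA-seq had been done on whole liver of male mice of the inbred strain C57BL/6, aged 6 weeks when dosing began. In the PS-MP group (3 libraries) polystyrene microplastic particles were given by mouth at 0.4 mg per day on 2 days a week for 8 weeks, and in the water group (3 libraries) water was given on the same schedule. No genetic change is named for either group. No label says whether each library is a mouse of its own, so a p-value here speaks only of the spread from library to library. The comparison asks whether oral microplastics altered liver gene expression.

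The respiratory chain passes electrons from NADH (complex I) and succinate (complex II) through ubiquinone to complex III, then by cytochrome c to complex IV, which reduces oxygen. Complexes I, III and IV pump protons across the inner mitochondrial membrane, and complex V lets them back to make ATP. Complex II is encoded wholly in the nucleus, whereas the other complexes join nuclear subunits to a hydrophobic core made inside the mitochondrion from mitochondrial DNA. Hepatocytes are rich in mitochondria, and use the chain to supply gluconeogenesis, urea synthesis and the burning of fatty acids.

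The libraries held 13082210 to 16948343 reads, and the members took 9.24% to 10.2% of them. The hepatocyte marker Alb stood at 24624 to 33953 FPKM (reads scaled to the exon length of a gene and to the library total, a level per length) in every library. Markers of other tissues were not evenly spread. A list of 8 forebrain neuron genes held 145 to 167 reads in water and 289 to 2808 in PS-MP, with Snap25 at 0 to 2 and 19 to 860 reads. Ucp1, which marks brown fat, was counted 139, 0 and 15 times in the water libraries and 0, 0 and 68 times in the PS-MP libraries, and a white fat list of 6 genes had 43 to 421 and 23 to 205. In whole tissue, fewer cells of a type and less RNA per cell cannot be told apart.

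The mitochondrial members were the most abundant, but they fell into groups with very different levels. Of the 13, 7 stood at a mean of 3852 to 21334 FPKM over the 6 libraries, and the other 6 at 18.3 to 269.9 FPKM. The upper group was mt-Co1, mt-Cytb, mt-Nd2, mt-Nd1, mt-Nd6, mt-Nd5 and mt-Nd4. The lower group was mt-Atp6, mt-Co2, mt-Nd3, mt-Co3, mt-Nd4l and mt-Atp8, which encode subunits of the same complexes and, like most of the upper group, are cut from 1 long precursor RNA. The contrast held even between genes known to share a messenger RNA. The mt-Nd4l and mt-Nd4 reading frames overlap (chrM:9877-10173 and chrM:10167-11544 on GRCm38, both on the plus strand), yet mt-Nd4l averaged 59.7 FPKM and mt-Nd4 averaged 3852 FPKM.

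The lower group is also where the gene sequence has a second copy in the genome. In the GENCODE M21 transcripts, more than 90% of the 50-base windows of 5 of these 6 genes occur in a transcript of another gene, against 0% to 62.2% in the upper group. The copies are pseudogenes that lie side by side on chromosome 1, on the minus strand, between chr1:24611535 and chr1:24616197 on GRCm38, in the order that the originals have on mitochondrial DNA. They begin part of the way through mt-Co1 and end part of the way through mt-Nd4. The window where the match begins inside mt-Co1 (cytochrome c oxidase subunit 1, the catalytic core of complex IV) is shown to let the boundary be seen, with the bases that differ in capitals.
mt-Co1, chrM:6381-6440, plus strand: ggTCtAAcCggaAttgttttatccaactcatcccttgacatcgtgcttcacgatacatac
Gm29216, chr1:24616138-24616197, minus strand: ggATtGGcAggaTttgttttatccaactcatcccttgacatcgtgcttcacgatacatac
These 60 bases hold 6 differences. The last is A1066T, counted from 1 at the 5′ end of the mt-Co1 coding sequence and with the mitochondrial base first, and from base 1067 (chrM:6394) to the end of mt-Co1 no base differs. The next gene, mt-Co2 (the subunit that takes electrons from cytochrome c), is copied almost whole, and its first 60 bases are shown with those of the copy as an example of a member whose sequence is found in both places.
mt-Co2, chrM:7013-7072, plus strand: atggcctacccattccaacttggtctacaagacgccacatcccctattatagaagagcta
Gm28661, chr1:24615506-24615565, minus strand: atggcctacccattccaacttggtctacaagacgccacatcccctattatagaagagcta
Of the 681 bases that mt-Co2 and Gm28661 share, 681 are identical. The share of 50-base windows found in another gene was 100% for mt-Co2, 99.9% for mt-Co3, 99.5% for mt-Atp6, 98.8% for mt-Nd4l and 98.0% for mt-Nd3. It was 62.2% for mt-Nd4, 51.1% for mt-Co1, 8.19% for mt-Nd2, 7.61% for mt-Nd5, and 0% for mt-Nd1, mt-Nd6 and mt-Cytb. These shares count any other gene, not only the row of copies on chromosome 1. The windows of mt-Co1 were shared with 3 genes, and the closest genes of mt-Nd2 and mt-Nd5 were Gm13339 and Gm4076, outside that row. With windows of 100 bases the share was 60.8% for mt-Nd4, 30.8% for mt-Co1, 3.19% for mt-Nd2 and 0% for mt-Nd5. For mt-Co2, mt-Co3, mt-Atp6, mt-Nd4l and mt-Nd3 it was 97.6% to 99.9%. In the lower group mt-Atp8 (chrM:7766-7969) had 0% in an annotated transcript. It follows mt-Co2 and overlaps the start of mt-Atp6 from chrM:7927, where the match with the copy Gm10925 begins. That overlap is too short to hold a 50-base window. The stretch of chromosome 1 between the copies of mt-Co2 and mt-Atp6 (chr1:24614651 to chr1:24614885) was not searched, so whether mt-Atp8 is copied there is not known. How reads that match more than 1 place were counted was not given in the sources used here, and the part of the copies in these levels was not tested.

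**Figure D1:**
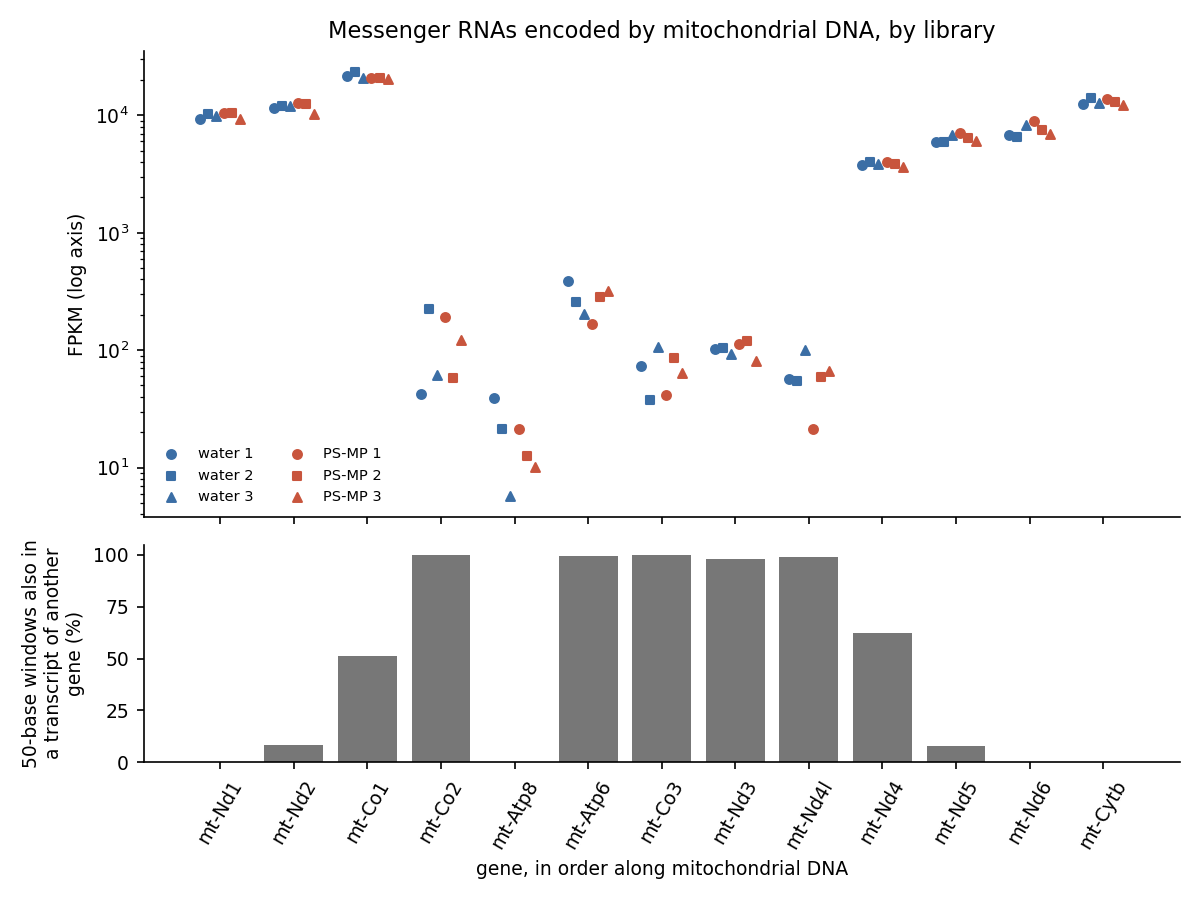
The upper panel plots the FPKM (log axis) of the 13 mitochondrial members in each of the 6 libraries, in order along mitochondrial DNA, and the lower panel the percent of each gene's 50-base windows that also occur in a transcript of another gene. The 6 genes below 1000 FPKM are neighbours, and 5 of them have over 90% of their windows in another gene.

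The spread between libraries differed along with the level. In the upper group the coefficient of variation within the groups was 4.35% to 13.2%, with a median of 5.99%, where counting alone would give 0.142% to 0.415%. In the lower group it was 15.1% to 75.4%, with a median of 42.9%, against 1.97% to 15.3% from counting. The levels of mt-Co2 were 42.3, 225.4 and 61.5 FPKM in the water libraries and 192.0, 57.4 and 122.1 in the PS-MP libraries. High and low values were thus found in both groups, with a highest value 5.33 times the lowest. Those of mt-Co1 were 21694, 23444 and 20916 FPKM in water and 20998, 20701 and 20251 in PS-MP, a range of 1.16 times. The chromosome 1 copies also differed in spread. Gm28661 stood at 24.3 to 44.7 FPKM, and Gm10925, the copy of mt-Atp6, at 112.4 to 182.7 FPKM. Gm29216, the copy of part of mt-Co1, ranged from 37.9 to 248.9 FPKM, with the highest value in PS-MP replicate 1. Gm28438, the copy of mt-Nd3, stood at 26.9 FPKM in water replicate 3 and at no more than 6.87 in any other library. The copies of mt-Co3, mt-Nd4l and mt-Nd4 averaged 30.1, 28.1 and 32.7 FPKM, with highest values of 43.5, 38.1 and 59.5.

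None of the 13 mitochondrial members differed between PS-MP and water in the limma-trend fit over 13299 genes with Benjamini-Hochberg adjustment, in which 0.489% of all genes passed an adjusted p of 0.05. The smallest adjusted p among them was 0.579, for mt-Nd4l (a small membrane subunit of complex I), with 56.3, 54.2 and 100.9 FPKM in water and 21.1, 59.6 and 66.4 in PS-MP. Its groups overlap, and its log2 fold change (PS-MP over water, on the scale log2(FPKM + 0.5)) was -0.62 (SE 0.43, n = 3 a group). The 7 abundant genes varied less within groups than the scarce ones. Their log2 fold changes lay between -0.09 (mt-Co1) and 0.10 (mt-Nd6), and the 95% interval of each stayed within 1.5 times in either direction, with bounds from 0.710 to 1.396 times the water level. Limma sets an SE partly from genes of like level, so the intervals do not follow each gene's own spread. For mt-Co1, with an SD within groups of 0.06 (log2), the SE was 0.17. For mt-Cytb, the only mitochondrial subunit of complex III, the values were 12590, 13966 and 12819 FPKM in water and 13834, 13104 and 12217 in PS-MP, and the log2 fold change was -0.01 (SE 0.16). For mt-Nd1, which helps form the ubiquinone site of complex I, they were 9297, 10209 and 9908 against 10398, 10494 and 9229 FPKM, with a log2 fold change of 0.03 (SE 0.15). For mt-Nd2, a proton-pumping subunit, they were 11509, 11952 and 12017 against 12700, 12601 and 10234 FPKM. In all 3 genes the groups overlap, and PS-MP replicate 3 is the lowest library.

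Of the 6 scarce mitochondrial members, only mt-Nd3 had an interval within 1.5 times. It stood at 102.2, 103.9 and 91.8 FPKM in water and 112.9, 120.8 and 80.7 in PS-MP. The intervals of the other 5 were wider, from 0.317 to 2.19 times the water level for mt-Atp8, 0.475 to 3.65 for mt-Co2, 0.328 to 1.29 for mt-Nd4l, 0.494 to 1.68 for mt-Co3 and 0.567 to 1.44 for mt-Atp6. The mt-Atp6 gene (the membrane subunit of ATP synthase that forms the proton path) had 390.8, 255.1 and 204.5 FPKM in water and 166.7, 280.9 and 321.4 in PS-MP. The mt-Co3 gene, a core subunit of complex IV, had 73.6, 37.9 and 107.3 against 41.6, 86.0 and 63.4 FPKM. The mt-Atp8 gene, a small stator subunit of ATP synthase, had 38.7, 21.1 and 5.74 against 21.4, 12.6 and 10.2 FPKM, from 17 to 120 reads. In each of these the groups overlap.

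The mt-Nd5 and mt-Nd6 genes meet on opposite strands (chrM:11742-13565 plus, chrM:13552-14070 minus). The mt-Nd6 values were 6824, 6600 and 8305 FPKM in water and 8921, 7447 and 6891 in PS-MP, and those of mt-Nd5 were 5965, 5955 and 6779 against 7111, 6433 and 6101. Both were highest in PS-MP replicate 1 and next highest in water replicate 3. The strand setting of the counting was not given in the sources used here, and RNA from the opposite strand cannot be separated from either gene.

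The nuclear members, at no more than 272.2 FPKM, all stood below the 7 abundant mitochondrial members, and differed in level by complex. The median level of the tested nuclear members was 28.3 FPKM in complex I, 78.2 in complex II, 69.7 in complex III, 62.2 in complex IV and 28.5 in complex V, against 2.95 over all 13299 genes tested. The highest were Atp5a1 and Atp5b, the alpha subunit and the catalytic beta subunit of ATP synthase, both present in several copies per enzyme. Atp5a1 averaged 266.6 ± 12.3 FPKM (SD, n = 3) in water and 277.8 ± 10.8 in PS-MP, and Atp5b 218.4 ± 9.08 and 221.1 ± 5.66. The gene leading complex I was Ndufa4 (80.5 FPKM over the 6 libraries). Sdhd, the small membrane anchor of succinate dehydrogenase, led complex II at 114.7. Uqcrfs1, the Rieske iron-sulfur protein, led complex III at 122.4. Cox4i1, a regulatory subunit, led complex IV at 122.6. The lowest tested members were Ndufb2 (0.998 FPKM over 5628 bases of merged exon, 62 to 101 reads a library), an accessory subunit of complex I, and Atp5s, a factor B homologue grouped here with complex V by its symbol (3.82 FPKM). FPKM was divided by the length of all annotated exons of a gene, which lowers the level of a gene whose main transcript uses few of them.

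**Figure D2:**
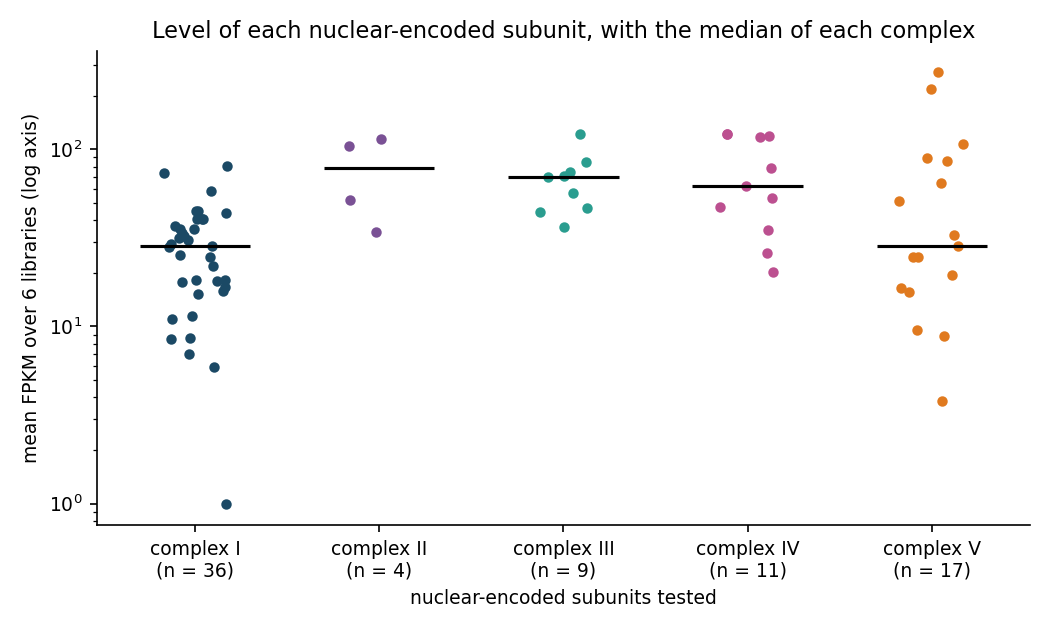
Each point is the mean FPKM over the 6 libraries (log axis) of 1 tested nuclear member, by complex, and the bar is the median of the complex. Complexes I and V have the lowest medians (28.3 and 28.5 FPKM), and complex V also holds the highest gene, Atp5a1.

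Across the nuclear members no difference between PS-MP and water passed the test, and the differences were small. Of 90 members tested, 0 passed an adjusted p of 0.05 in limma-trend, and 0 in limma-voom on the recovered reads (0.489% and 1.0% of all genes did). An unadjusted p under 0.05 was found for 2 of 90 members, or 2.22%, against 13.1% of all genes, and for 2 in limma-voom against 13.3%. Among genes at 5 FPKM or more, 16.6% had an unadjusted p under 0.05 and 0.848% passed the adjusted threshold. The log2 fold changes of the 77 tested nuclear members ran from -0.24 to 0.20, with a median of -0.01 and 35 above 0. Over all genes the median was 0.01, and 53.7% of them were above 0 (47.4% of those at 5 FPKM or more). The 95% interval (per gene, not adjusted for their number) lay within 1.5 times in either direction for 77 of 77, with bounds from 0.737 to 1.28 times the water level, as it did for 82.8% of all genes and 88.3% of those at 5 FPKM or more.

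**Figure D3:**
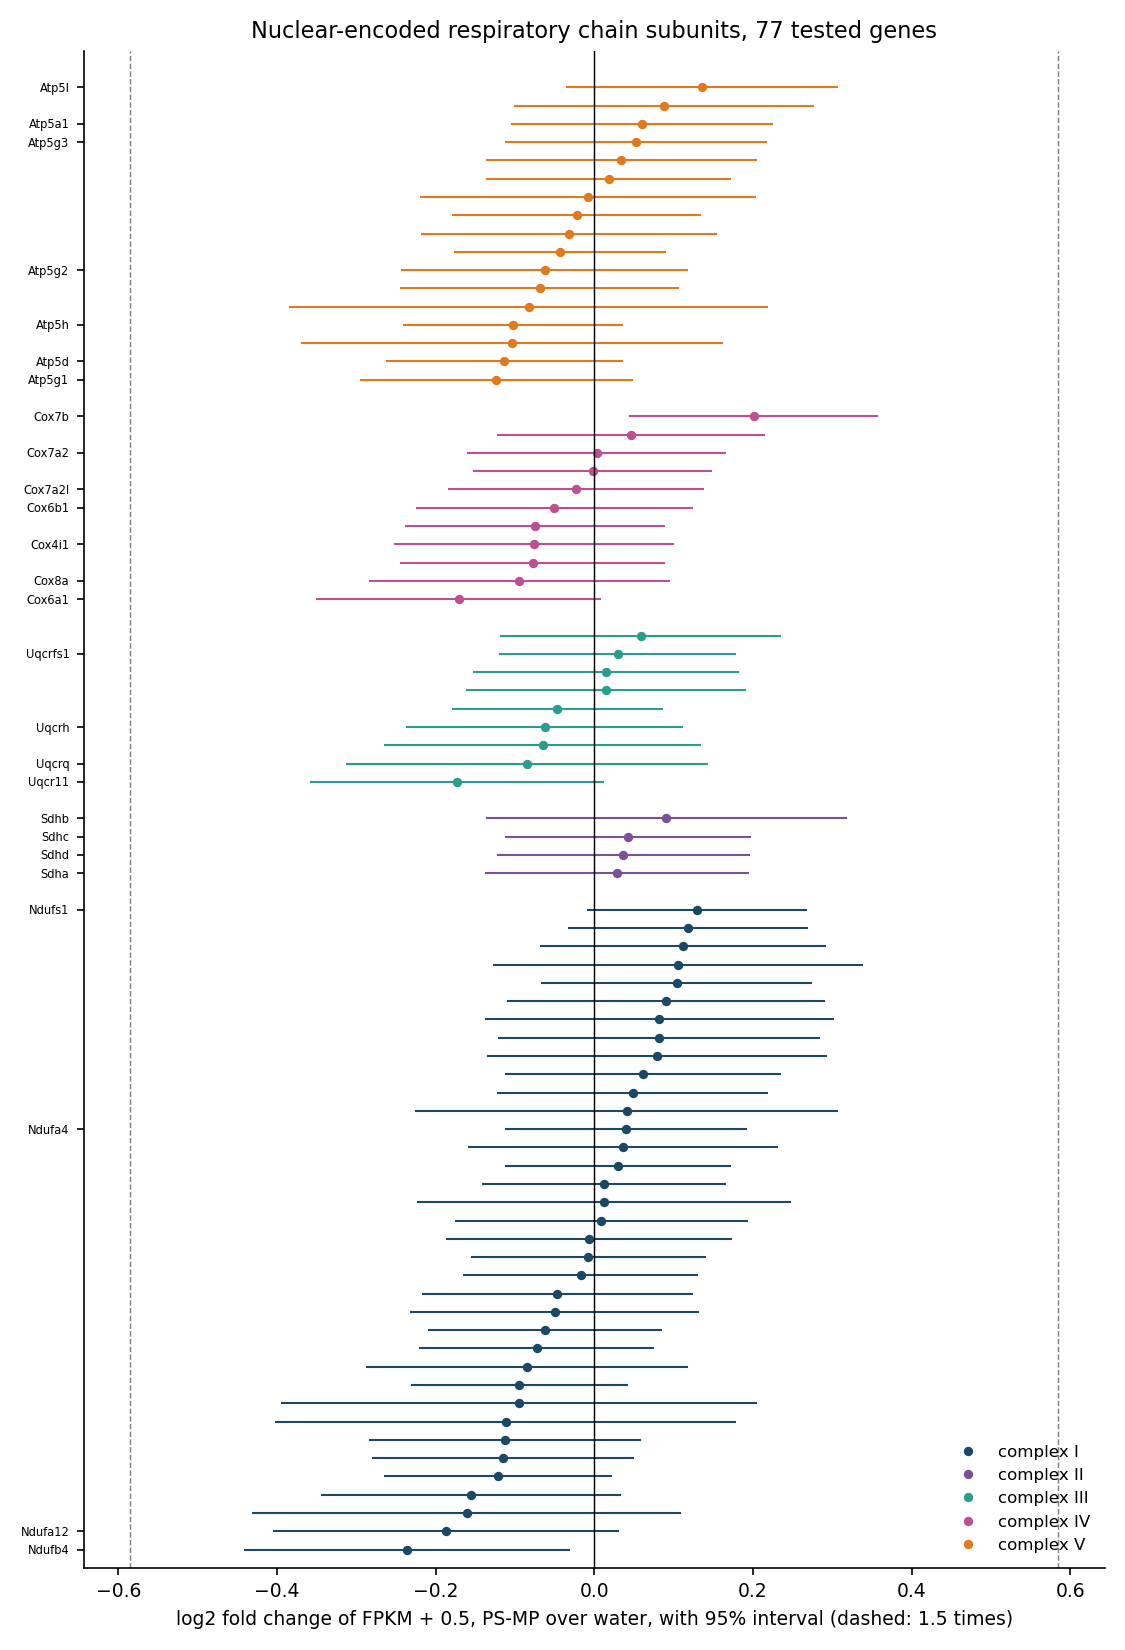
Points are the log2 fold changes (PS-MP over water, on log2(FPKM + 0.5)) of the 77 tested nuclear members, coloured by complex, with 95% intervals from limma and labels on the members the text names by its rule, and dashed lines mark 1.5 times in either direction. The estimates lie between -0.24 and 0.20, and no interval reaches a dashed line.

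In complex I the 36 tested nuclear members were evenly divided, 18 above and 18 below 0, with a median log2 fold change of 0.00. Ndufb4 (chr16:37647170-37654453), an accessory subunit of the membrane arm, had 20.0, 21.1 and 18.2 FPKM in water and 15.04, 17.4 and 17.7 in PS-MP. The groups did not overlap, and the log2 fold change was -0.24 (SE 0.09, adjusted p = 0.317, limma). Ndufs1 (chr1:63143596-63176833), the largest core subunit of the matrix arm, which carries iron-sulfur clusters, had 15.1, 15.1 and 14.9 FPKM in water and 16.4, 16.3 and 16.8 in PS-MP. These groups also stood apart, in the other direction, with a log2 fold change of 0.13 (SE 0.06, adjusted p = 0.409). Ndufa12, an accessory subunit of the matrix arm, had 18.7, 18.5 and 20.98 against 15.6, 19.2 and 16.3 FPKM, and its groups overlapped. Ndufa4, the most abundant, had 84.3, 78.4 and 75.5 against 79.6, 83.2 and 81.9 FPKM, with a log2 fold change of 0.04 (SE 0.07). Ndufv1, the core subunit that binds NADH, had 39.4, 39.6 and 37.3 FPKM in water and 42.7, 39.9 and 43.9 in PS-MP. It was chosen after its values were seen, because its groups do not overlap.

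All 4 members of complex II had log2 fold changes above 0, with a median of 0.04, and in all 4 the groups overlapped. Sdha, the flavoprotein that oxidises succinate, had 106.5, 100.3 and 103.5 FPKM in water and 107.2, 97.8 and 112.0 in PS-MP (log2 fold change 0.03, SE 0.07). Sdhb, the iron-sulfur subunit, had 47.4, 54.7 and 48.5 against 52.4, 48.1 and 60.4 FPKM (0.09, SE 0.10, adjusted p = 0.738, the smallest of the 4). The membrane anchors Sdhc and Sdhd gave 0.04 (SE 0.07) and 0.04 (SE 0.07). PS-MP replicate 3 held the highest value of Sdha, Sdhb and Sdhc, at 112.0, 60.4 and 37.0 FPKM.

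Of the 9 nuclear members of complex III, 4 were above 0, and the median was -0.05. Uqcr11 (chr10:80402997-80406830), the smallest subunit, had 66.6, 59.1 and 55.4 FPKM in water and 53.3, 55.1 and 51.7 in PS-MP. The groups were separate by a narrow margin, and the log2 fold change was -0.17 (SE 0.08, adjusted p = 0.411). Uqcrq and Uqcrh, which bind near cytochrome b and cytochrome c1, gave -0.08 (SE 0.10) and -0.06 (SE 0.07), and both overlapped. The catalytic Uqcrfs1 had 120.2, 127.7 and 115.8 against 122.3, 125.9 and 122.7 FPKM, a log2 fold change of 0.03 (SE 0.06).

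Complex IV held the member with the smallest p of all. Cox7b (chrX:106015700-106022450), a small membrane subunit needed for assembly of the complex, had 58.9, 57.2 and 57.2 FPKM in water and 67.9, 61.8 and 70.0 in PS-MP. Every PS-MP library was above every water library, and the log2 fold change was 0.20 (SE 0.07, 95% interval 0.04 to 0.36, adjusted p = 0.274). Most of the complex lay on the other side: 8 of 11 tested nuclear members were below 0, with a median of -0.05. Cox6a1 had 136.5, 123.7 and 116.6 FPKM in water and 109.0, 116.7 and 108.4 in PS-MP (log2 fold change -0.17, SE 0.08, adjusted p = 0.401), and the groups met at 116.6 and 116.7. Cox8a had 131.4, 123.7 and 108.7 against 115.6, 110.5 and 113.6 FPKM (-0.09, SE 0.08), and Cox4i1 127.2, 133.8 and 116.6 against 118.3, 125.8 and 113.7 (-0.08, SE 0.08). In these 3 genes the lowest water value was that of replicate 3.

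In complex V, 6 of 17 tested nuclear members were above 0, and the median was -0.03. The smallest p belonged to Atp5l (subunit g, which takes part in dimer formation), with 8.57, 8.16 and 8.55 FPKM in water and 8.72, 9.46 and 9.78 in PS-MP (log2 fold change 0.14, SE 0.07, adjusted p = 0.484). Atp5d, the delta subunit of the rotating stalk, had 54.5, 54.7 and 49.6 against 49.2, 49.1 and 48.3 FPKM (-0.11, SE 0.06). Atp5h, subunit d of the stator, had 89.8, 88.9 and 89.9 against 80.1, 86.4 and 83.5 (-0.10, SE 0.06). In all 3 the groups did not overlap. The abundant Atp5a1 had 254.6, 279.2 and 265.8 against 285.4, 265.4 and 282.5 FPKM, and overlapped (0.06, SE 0.07).

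Over all 90 tested members, 13 had groups that did not overlap, 4 higher and 9 lower in PS-MP. That is 14.4%, where 19.2% of all genes did not overlap (11.1% higher and 8.12% lower). Of the 4833 genes at 5 FPKM or more, 21.9% did not overlap, 518 higher and 541 lower. The 13 had log2 fold changes of 0.05 to 0.24 in size and adjusted p of 0.274 to 0.776 in limma.

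Summed over its nuclear members, each complex stood at close values in both groups. Complex I summed to 1037 ± 42.6 FPKM (SD, n = 3) in water and 1035 ± 11.2 in PS-MP, complex II to 300.5 ± 7.76 and 310.1 ± 13.1, and complex III to 612.9 ± 27.3 and 599.1 ± 6.95. Complex IV summed to 818.0 ± 45.9 and 790.1 ± 14.2, and complex V to 1074 ± 34.7 and 1075 ± 28.6. In each complex the difference between the groups was smaller than the larger of the 2 SDs. The 13 mitochondrial members summed to 74799 ± 2259 FPKM in water and 74314 ± 4727 in PS-MP, and took 9.16% ± 0.292 and 9.03% ± 0.510 of the reads. The balance of mitochondrial to nuclear messenger RNA, as the ratio of their summed FPKM, was 18.6, 19.5 and 20.4 in the water libraries and 20.8, 19.9 and 17.8 in the PS-MP libraries. Both the highest and the lowest ratio were thus in PS-MP, and the means were 19.5 ± 0.883 and 19.5 ± 1.53. The median log2 fold change was -0.01 for the 13 mitochondrial and -0.01 for the 77 nuclear members. Whether poly(A) RNA was selected was not given in the sources used here, and that choice sets how much mitochondrial RNA is counted. The mitochondrial sum also takes in the genes with copies on chromosome 1. How reads that match more than 1 place were counted was not given, and its effect on the ratio was not tested.

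The libraries differed in the nuclear members as a body more than the groups did. The number of the 77 tested nuclear members above their own mean over the 6 libraries was 47, 57 and 14 in water and 24, 33 and 46 in PS-MP. The median deviation from that mean was 0.04, 0.06 and -0.05 (log2) in water and -0.04, -0.02 and 0.03 in PS-MP. For the 7 abundant mitochondrial members the number above their own mean was 1, 5 and 3 in water and 6, 4 and 0 in PS-MP. PS-MP replicate 3 was low in the mitochondrial and above the middle in the nuclear members, and PS-MP replicate 1 the reverse. PS-MP replicate 3 is also the library with 860 Snap25 reads and 68 Ucp1 reads, and their part in its position was not tested. Without it the median log2 fold change was 0.04 for the mitochondrial and -0.03 for the nuclear members. Without water replicate 3, the lowest library for the nuclear members, 10 of 90 members had an unadjusted p under 0.05 (1 above and 9 below 0), or 11.1% against 12.3% of all genes in that fit, and the smallest adjusted p was 0.321. As single genes, the nuclear members varied little from library to library. The median SD within groups was 0.08 (log2) for the tested nuclear members, 0.13 for all genes tested and 0.11 for those at 5 FPKM or more.

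**Figure D4:**
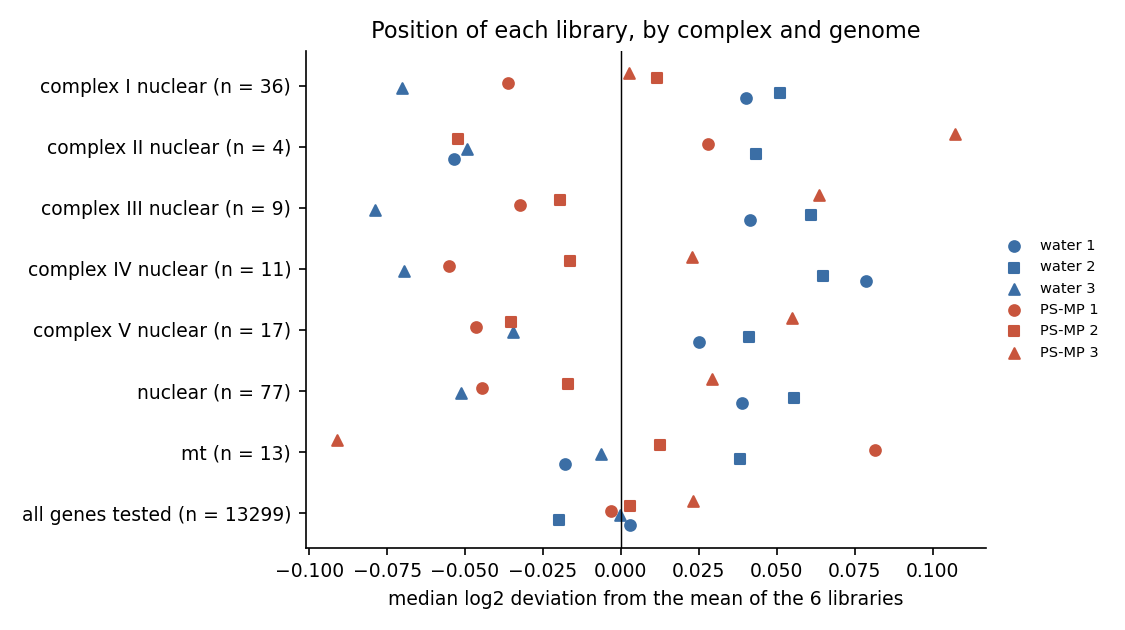
Each point is the median log2 deviation of 1 library from the mean of the 6 libraries, over the tested nuclear members of each complex, all nuclear members, the mitochondrial members and all genes tested. Water replicate 3 lies below 0 in every complex, and PS-MP replicate 3 is the lowest library for the mitochondrial members (-0.09).

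Several subunits exist as alternative forms made in different tissues, and the liver libraries held the widely expressed form of each. Cox4i2, the lung and hypoxia form of subunit 4, had 1, 1 and 0 reads in water and 0 in each PS-MP library, and the heart and muscle form Cox6a2 had 1 read in all. The muscle form Cox7a1 had 4 to 7 reads a library and made up 0.858% to 1.48% of the summed FPKM of Cox7a1 and Cox7a2. Cox6b2, the testis form, stood at 0.249 to 0.623 FPKM beside 112.9 to 129.4 for Cox6b1. Ndufa4l2, a hypoxia-induced relative of Ndufa4, stood at 0.140 to 0.860 FPKM. The muscle list held 2 to 20 reads a library, with Ckm at 0, and the testis list 0 to 2.

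Cox8b is the form of subunit 8 in heart, muscle and brown fat. Its reads numbered 5, 0 and 1 in water and 0, 0 and 6 in PS-MP. The 3 libraries with any Cox8b read were the 3 with Ucp1 reads, and also the 3 with reads of Cidea, another gene of brown fat, at 47, 19 and 17. The 8 brown fat genes together had 2959 to 5200 reads in water and 2062 to 2296 in PS-MP, most of them from Elovl3, which the liver also expresses. Otop1 had 8, 0 and 1 reads in water and 0, 0 and 5 in PS-MP. Other genes of the list did not follow Ucp1. Adrb3 (18 to 89 reads) and Kcnk3 (2 to 35) were counted in every library. Zic1 had 1 read, in PS-MP replicate 3, and Lhx8 had 0. Whether these reads came from fat taken with the liver was not tested. The widely expressed Cox8a had 936 to 1298 reads in every library. These scarce forms, 5 in complex IV and Ndufa4l2 in complex I, did not pass the low-count rule and were not tested.

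ATP synthase has 3 genes for the same ring subunit c, which differ in the targeting sequence that is removed on import. Atp5g3 was the main one, at 85.8, 95.2 and 82.5 FPKM in water and 89.8, 92.5 and 90.5 in PS-MP. Atp5g2 made up 18.5% to 21.7% of their summed FPKM and Atp5g1 7.09% to 8.38%. Of the 50-base windows of Atp5g2, 38.3% also occur in a transcript of another gene, against 11.1% for Atp5g1 and 0% for Atp5g3. Over the 77 tested nuclear members, 19 had more than 10% of their windows in another gene, with a highest share of 41.6% (Atp5o). The effect of such copies on these levels was not tested. Atp5g1 had 9.93, 10.2 and 9.90 FPKM in water and 8.65, 9.85 and 9.01 in PS-MP, without overlap (log2 fold change -0.12, SE 0.07, adjusted p = 0.526, limma). Another related pair, Cox7a2 and Cox7a2l (the second helps join complexes III and IV), gave 0.00 (SE 0.07) and -0.02 (SE 0.07).

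**Figure D5:**
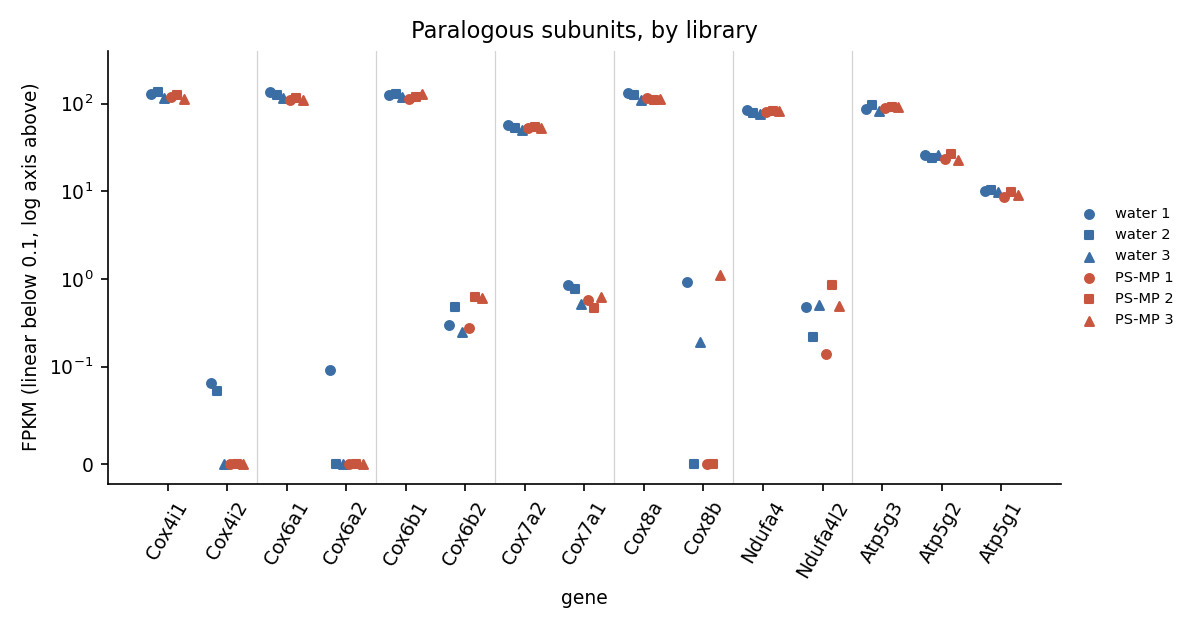
FPKM of the subunits that have alternative forms, by library, with an axis that is linear below 0.1 and logarithmic above. The tissue-restricted forms Cox4i2, Cox6a2, Cox6b2, Cox7a1, Cox8b and Ndufa4l2 lie near or below 1 FPKM in every library, and their widely expressed counterparts mostly between 40 and 140.

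The genes that act on the respiratory chain from outside it were looked at as 11 lists, of which 191 genes were tested and 0 passed an adjusted p of 0.05 in limma-trend, where 0.489% of all genes did. An unadjusted p under 0.05 was found for 22, or 11.52%, against 13.1% of all genes. The list nearest the threshold was that of transcription factors and coactivators of respiratory genes, with 8 of 10 above 0 and a median log2 fold change of 0.11. Ppargc1b, a coactivator of mitochondrial genes, had 1.91, 1.77 and 2.24 FPKM in water and 3.45, 3.22 and 4.27 in PS-MP. The PS-MP libraries were all above the water libraries, with a log2 fold change of 0.74 (SE 0.13) and an adjusted p of 0.0643 in limma-trend. In limma-voom it passed, at 0.88 with an adjusted p of 0.0336. Esrra, the nuclear receptor through which such coactivators act on subunit genes, had 3.68, 4.76 and 3.85 against 5.42, 5.61 and 6.54 FPKM (0.47, SE 0.12, adjusted p = 0.152). Ppargc1a, the better known coactivator, was named after its values were seen, and had 2.14, 2.89 and 2.97 against 4.46, 7.08 and 3.77 FPKM (0.79, SE 0.21, adjusted p = 0.184). Without the 3 libraries with Ucp1 reads, a fit that keeps a lone water library, the log2 fold change of Esrra was 0.19. The cause of the smaller value was not tested. The subunit genes themselves had a median of -0.01. The other factors of the list did not stand out: Nrf1 gave -0.07 (SE 0.11) and Gabpa 0.00 (SE 0.07). Tfam, which packages and transcribes mitochondrial DNA, gave 0.01 (SE 0.07).

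NRF1 is a factor whose binding site lies near the start of many respiratory genes, and the promoters of the nuclear members were searched for the core of that site. RefSeq promoters on GRCm38.p6, from 250 bases before to 50 after the gene start, were matched by gene identifier or symbol for 65 of 83 nuclear members. The palindrome CGCATGCG, the same on both strands, was found in 9 of the 65 (13.8%), against 2.07% of all 27025 genes with a promoter in the table. The 9 were Atp5g2, Atp5j, Atp5k, Atp5l, Cox6a1, Ndufa11, Ndufa8, Uqcr11 and Uqcrc1. CCGGAAGT, a site of GABPA, searched on both strands, was in 5 (7.69%) against 4.31%. AAGATGGCG, a site of YY1, also on both strands, was in 7 (10.8%) against 1.64%. The 3 motifs do not contain each other. The shares beside them are over all genes of the table, expressed in liver or not, and were not matched for base composition. The NRF1 matches of 4 members whose values are given above are shown, with the palindrome in capitals.
Atp5g2, chr15:102671065-102671104, minus strand: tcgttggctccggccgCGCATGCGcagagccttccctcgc
Atp5l, chr9:44920960-44920992, minus strand: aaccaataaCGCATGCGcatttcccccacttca
Cox6a1, chr5:115349096-115349135, minus strand: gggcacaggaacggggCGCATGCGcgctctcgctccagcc
Uqcr11, chr10:80406803-80406842, minus strand: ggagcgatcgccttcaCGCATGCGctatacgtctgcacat
A match describes the letters only. The log2 fold change of Atp5l was above 0 and those of the other 3 below it, and none of the 9 genes passed the test. The Nrf1 messenger RNA itself stood at 0.973, 0.981 and 1.17 FPKM in water and 0.900, 1.07 and 0.932 in PS-MP.

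The remaining lists held assembly factors and partners of the chain. In the list of cytochrome c, ubiquinone synthesis and electron entry (19 tested, 10 above 0), Coq4, which takes part in ubiquinone synthesis, had 1.63, 1.51 and 1.66 FPKM in water and 1.17, 0.923 and 0.947 in PS-MP (log2 fold change -0.48, SE 0.11, adjusted p = 0.123, limma). Coq10b, a ubiquinone-binding protein, gave 0.64 (adjusted p = 0.205), and cytochrome c itself (Cycs) gave -0.08 (SE 0.11). Among 6 assembly factors of complex III, 5 were below 0. Bcs1l, which inserts the Rieske protein, had 4.90, 4.95 and 4.24 against 3.31, 3.81 and 3.30 FPKM (-0.39, SE 0.10, adjusted p = 0.162), while its client Uqcrfs1 gave 0.03, and Lyrm7 gave -0.10. In 19 tested assembly factors of complex IV the median was 0.00, with Pet100 at -0.39 (adjusted p = 0.198) and Cox11, a copper carrier, at 0.40 (adjusted p = 0.229). The median was 0.01 in 16 assembly factors of complex I (Ndufaf4 0.31, adjusted p = 0.231, and Ndufaf5 -0.40, adjusted p = 0.301). It was 0.07 in 4 of complex II (Sdhaf3 0.08, Sdhaf1 0.10) and -0.14 in 5 of complex V (Fmc1 -0.24, Atpaf2 -0.14).

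Genes that keep and express mitochondrial DNA gave no call either. For 14 tested genes of its maintenance and transcription the median log2 fold change was -0.06, led by Ssbp1, which binds single-stranded mitochondrial DNA, at -0.23 (adjusted p = 0.352, limma), and Top1mt, its topoisomerase, at -0.19 (adjusted p = 0.375). For 15 genes of mitochondrial RNA processing it was 0.01, led by Fastkd3 (0.47, adjusted p = 0.191) and Fastkd1 (0.40, adjusted p = 0.294). Of 77 tested mitochondrial ribosomal proteins, 17 were above 0, where 53.7% of all genes and 47.4% of those at 5 FPKM or more were. An unadjusted p under 0.05 in limma-trend was found for 4 of the 77, against 13.1% of all genes. Groups did not overlap for 9 of the 77, against 19.2% of all genes. Whether these genes vary together from library to library was not tested. The median of the 77 was -0.05 (Mrpl35 -0.22, Mrps6 -0.33, both with adjusted p = 0.306, limma). Among 6 carriers and porins the median was 0.06, with Vdac1 at 0.09 and Vdac3 at -0.09.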

How the data were processed

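Liver RNA-seq of 3 PS-MP and 3 water libraries was analysed. The authors deposited FPKM per gene. Per the submitters' processing notes, CASAVA, FastQC, MultiQC, Trimmomatic 0.38, HISAT2 2.1.0, featureCounts 1.6.0 and DESeq2 1.22.1 were used. GRCh38, a human build, is named there too, but the 55536 identifiers equal those of GENCODE M21 (mouse, GRCm38), which supplied symbols, coordinates and exon lengths. FPKM times exon length over the step of the library gave whole reads within 0.001 for 100.0% of values above 0, and the totals (13082210 to 16948343) set the depth.

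Genes with the CPM of 10 reads in the median library in at least 3 libraries, and 15 reads in all, were tested by limma-trend on log2(FPKM + 0.5), with group as the only term, all 6 libraries and Benjamini-Hochberg adjustment over 13299 genes (limma 3.58.1, R 4.3.3; tested on simulated data). Alternatives were 2 pseudocounts, 2 low-count rules, 2 scalings, limma-voom, a replicate block, each library left out and, chosen after seeing the data, the Ucp1 libraries left out. Windows of 50 and of 100 bases were matched exactly among GENCODE M21 transcripts. In each complex the text names the 3 nuclear members of smallest p and the most abundant, all mitochondrial members, isoform families and Sdh genes, and the 2 genes of smallest p in each list. The members and lists were chosen with earlier results of these data known. Of the members, 27 overlap another tested gene.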

Additional observations from a re-analysis of the deposited data

How the results depend on the processing

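In all 15 alternatives 0 members passed an adjusted p of 0.05 (smallest 0.222), and 0 to 10 had an unadjusted p under 0.05 (7.69% to 13.5% of all genes did). The 95% intervals of the 77 tested nuclear members stayed within 1.5 times in each alternative but 1: without the 3 libraries with Ucp1 reads, chosen after seeing the data, 75 did. That setting keeps a lone water library, assumed to vary like the others. Its median log2 fold changes were -0.072 in complex I, -0.032 in complex II, -0.12 in complex IV, -0.094 in complex V and -0.084 over the nuclear members, and the cause was not tested. Of all genes, 65 were called, against 133 by limma-voom, 0 without a low-count rule, 23 with the replicate block, 0 without the Ucp1 libraries and 0 to 36 with 1 library left out (0 without water replicate 3). Same-numbered libraries did not deviate together (r = -0.04, 0.05 and -0.01), which with 3 libraries a group cannot show whether they were paired. With the replicate block the median over the nuclear members stayed at -0.01, and 0 of them were called. The median over the mitochondrial members lay between -0.05 and 0.04 with 1 library left out. Of 62 named genes, Ppargc1b in limma-voom was the 1 value of 930 to change its side of the threshold. Depth limits the tissue-restricted forms, at 0 to 15 reads.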
